A study of Homo sapiens with 27 samples.

Results

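The addition of VPS37A depletion to VPS37B depletion was examined by setting the 3 libraries of DLD1 cells given siRNAs against both paralogs (siVPS37AB#1, here siVPS37AB) against the 3 libraries of cells given the VPS37B siRNA (siVPS37B#1, here siVPS37B). These 6 of the 27 libraries of the study were chosen by their labels, and libraries of the same replicate number were paired. DLD1 is a line of human colorectal carcinoma cells, and RNA was taken 72 h after transfection and measured with a panel of amplicons for human transcripts. The VPS37B siRNA is thus shared by both groups, the groups differ by the VPS37A siRNA, and VPS37C was targeted in neither. Each paralog was targeted by 1 siRNA sequence, so effects of that sequence on other transcripts cannot be told apart from effects of the paralog's loss, and whether cells of both groups received equal siRNA in total is not given in the sources used here. The study's text calls the replicates biological and the labels number the batches as they number the replicates, so p-values measure spread between samples. That spread, and with it each standard error, was pooled over 24 libraries of 8 groups, all groups of the study but the control siRNA (siCTRL).

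VPS37A, VPS37B and VPS37C are alternative subunits of ESCRT-I, the endosomal complex in which a VPS37 protein joins TSG101, VPS28 and either UBAP1 or an MVB12 protein. ESCRT-I receives ubiquitinated membrane proteins from ESCRT-0 (HGS and STAM) and passes them on for sorting into the vesicles that lysosomes degrade. Its cargo includes activated growth factor receptors such as EGFR and cytokine receptors such as TNFRSF1A, which signal through MAP kinases and through NF-kB, and epithelial cells answer NF-kB activity with cytokines and chemokines.

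Transcripts changed in both directions when VPS37A depletion was added, and rises were the more frequent. The largest rises among genes that average 50 TPM or more were in cytokine, NF-kB, oxidative stress and endoplasmic reticulum (ER) stress genes, and most of the largest falls were in genes of replication-dependent histones. Levels are called TPM here, as shares of 1000000 per library, and whether they were corrected for transcript length is not recorded. Differences are siVPS37AB minus siVPS37B on the scale of log2(TPM + 1), each followed by its standard error (SE), n = 3 per group. Values of the 3 libraries of a group are always given in the order of replicates 1, 2 and 3, and the depth of sequencing is unknown. A gene is said to have risen or fallen where limma, fitted with the replicate number as a block, gave a Benjamini-Hochberg adjusted p under 0.05. Of 6468 genes tested, 1108 (17.1%) rose and 387 (5.98%) fell, 23.1% in all. Of the 1495 genes called, 1488 had the same sign in all 3 pairs, 92 rose and 23 fell by more than 2-fold, and the median called rise was 0.53 and the median called fall -0.52. The libraries of the 2 groups did not overlap for 1499 genes that were higher in siVPS37AB (23.2%) and for 626 that were lower (9.68%).

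The median over all genes tested was 0.11, so the typical gene lay slightly higher in siVPS37AB on this scale, and medians of gene lists are to be read against it. Counts within gene lists are likewise to be read against the 17.1% of all genes that rose and the 5.98% that fell. Quantile normalization moved this median to 0.0023 and evened the split to 649 rises and 648 falls. Without siVPS37AB replicate 1 the counts were 611 rises and 180 falls, without siVPS37AB replicate 3 they were 696 and 236, and without siVPS37B replicate 1 they were 672 and 205. Across 13 alternatives (7 other settings and the omission of each of the 6 libraries compared, without the filter at 50 TPM and the omission of libraries of other groups), 290 genes rose and 83 fell in each. A gene that an alternative did not test counts as not called in it. Pearson's r of log2(TPM + 1) across the tested genes, a description, lay between 0.984 and 0.989 among siVPS37AB libraries, between 0.969 and 0.991 among siVPS37B libraries and between 0.956 and 0.981 across the groups. The first principal component of 24 libraries (27.8% of the variance) placed all 3 siVPS37AB libraries below 0 and all 3 siVPS37B libraries above 0. The number that ends each library's description was 80, 84 and 89 for siVPS37AB and 81, 85 and 603 for siVPS37B, so no such number was shared by the groups, and a fit with a term for it gave 664 rises and 252 falls.

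**Figure D1:**
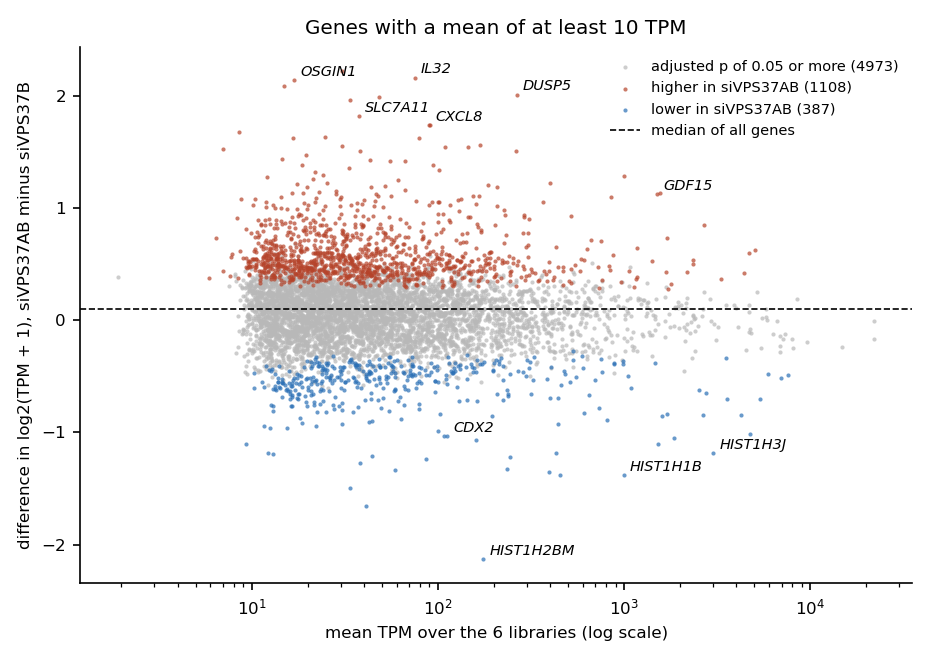
Difference in log2(TPM + 1), siVPS37AB minus siVPS37B, of each of the 6468 genes tested (points) against its mean TPM over the 6 libraries on a log axis. The 1108 rises and 387 falls are coloured, and the dashed line marks the median of all genes at 0.11, with IL32 and DUSP5 near the top and HIST1H2BM at the bottom.

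The VPS37A transcript was lower in all 3 siVPS37AB libraries, while VPS37B was low in both groups and VPS37C did not pass the test. VPS37A was at 0.146, 0.458 and 0.360 TPM in siVPS37AB and 4.04, 6.33 and 6.21 TPM in siVPS37B (-2.29 ± 0.13, adjusted p = 8.15e-11, in the fit without a filter on low values). The 2 groups did not overlap for VPS37A, which had few TPM even in the group in which it was not targeted. VPS37B, targeted in both groups, was at 2.04, 2.55 and 2.28 TPM in siVPS37AB and 1.61, 2.09 and 0.964 TPM in siVPS37B (0.39 ± 0.19, adjusted p = 0.14). VPS37C was at 22.4, 23.1 and 25.4 TPM in siVPS37AB and 21.8, 22.8 and 17.3 TPM in siVPS37B (0.19 ± 0.21, adjusted p = 0.529). The groups overlapped for both of these genes. UBAP1, the ESCRT-I subunit that directs the complex to ubiquitinated endosomal cargo, was at 35.2, 34.4 and 51.1 TPM in siVPS37AB and 17.6, 18.3 and 21.2 TPM in siVPS37B (1.02 ± 0.18, adjusted p = 0.000248). Its 3 siVPS37AB values lay above all 3 siVPS37B values, and it was called in all 13 alternatives. TSG101, the ubiquitin-binding core subunit, was at 126, 126 and 134 TPM in siVPS37AB and 101, 119 and 108 TPM in siVPS37B (0.24 ± 0.10, adjusted p = 0.103). VPS28, another core subunit, differed by -0.15 ± 0.20, adjusted p = 0.627. Neither passed the test, and both were named for being core subunits outside the naming rule. The ESCRT-I list had 8 of its 11 genes in the table and 5 tested, of which 1 rose (UBAP1) and none fell.

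Among the other ESCRT components 4 of 24 tested genes rose and none fell, with a median of 0.17, against 17.1% rising and a median of 0.11 over all genes. HGS, the ESCRT-0 subunit that binds ubiquitinated cargo first, was at 68.2, 70.4 and 77.0 TPM in siVPS37AB and 35.6, 45.1 and 50.5 TPM in siVPS37B (0.72 ± 0.11, adjusted p = 4.45e-05). STAM, its ESCRT-0 partner, was at 22.0, 20.3 and 28.0 TPM in siVPS37AB and 13.3, 15.0 and 16.2 TPM in siVPS37B (0.62 ± 0.14, adjusted p = 0.00308). Both were higher in every siVPS37AB library than in any siVPS37B library. VPS4B, an ATPase that takes ESCRT-III apart, differed by 0.65 ± 0.16, adjusted p = 0.00591, and PDCD6, a calcium-binding partner of the ESCRT machinery, by 0.45 ± 0.13, adjusted p = 0.0137. Without siVPS37B replicate 1, VPS4B (adjusted p = 0.0514) and PDCD6 (adjusted p = 0.0844) were lost and the count was 2, PDCD6 was also lost without siVPS37AB replicate 1 (adjusted p = 0.0944) or siVPS37B replicate 3 (adjusted p = 0.085), and STAM had an adjusted p = 0.0586 with a term for the library number.

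**Figure D2:**
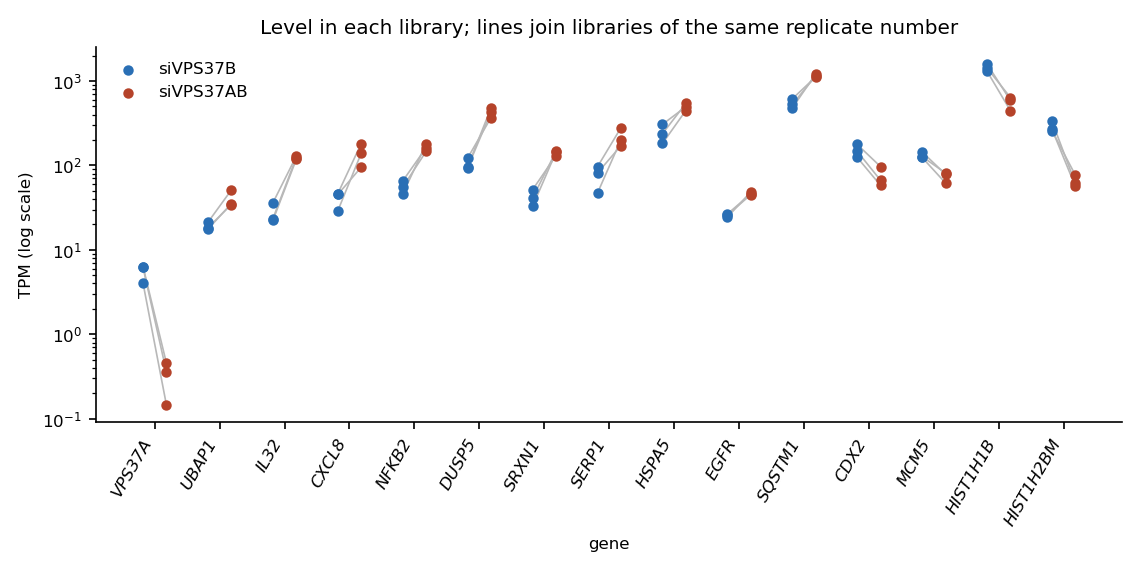
TPM on a log axis of the genes named on the x axis in each siVPS37B library (blue) and each siVPS37AB library (red), with lines joining libraries of the same replicate number. VPS37A, CDX2, MCM5, HIST1H1B and HIST1H2BM are lower in siVPS37AB and the other genes shown are higher, with no overlap between the groups for any gene shown.

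Secreted cytokines and chemokines were the list with the highest median of those described here. Of 34 genes listed, 18 were in the table and 11 tested, of which 9 rose and none fell, and the median was 1.13 (over all genes, 17.1% rose and the median was 0.11). IL32, a proinflammatory cytokine, was at 118, 128 and 123 TPM in siVPS37AB and 22.3, 35.99 and 23.4 TPM in siVPS37B (2.17 ± 0.19, adjusted p = 2.77e-08). CXCL8, a chemokine that attracts neutrophils, was at 139, 95.1 and 181 TPM in siVPS37AB and 29.0, 45.3 and 46.3 TPM in siVPS37B (1.74 ± 0.29, adjusted p = 0.000163). LCN2, a secreted iron-carrier-binding protein of innate immunity, was at 119, 173 and 112 TPM in siVPS37AB and 34.5, 80.8 and 44.6 TPM in siVPS37B (1.38 ± 0.14, adjusted p = 4.84e-07). For each of these 3 genes the lowest siVPS37AB library lay above the highest siVPS37B library. CSF2, the growth factor GM-CSF, was low in both groups, at 14.3, 11.6 and 14.9 TPM in siVPS37AB and 4.24, 3.10 and 3.31 TPM in siVPS37B (1.68 ± 0.20, adjusted p = 2.51e-06). CXCL5, another chemokine for neutrophils, was at 271, 265 and 243 TPM in siVPS37AB and 119, 169 and 146 TPM in siVPS37B (0.85 ± 0.13, adjusted p = 4.45e-05). GDF15, a stress-induced member of the TGF-beta family, was at 2886, 1640.0 and 1692 TPM in siVPS37AB and 1109.6, 1007 and 686 TPM in siVPS37B (1.13 ± 0.24, adjusted p = 0.00161), and was singled out after its values were seen; with the library number its adjusted p was 0.208. CXCL2, IL18 and LIF were the other 3 genes that rose. IL32, CXCL8, CXCL2, CXCL5, IL18 and LCN2 rose in all 13 alternatives. CSF2 lay under the filter in the fit of only the 6 libraries, so it was not tested there.

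Many genes that encode NF-kB subunits or feed back on NF-kB also rose. Of 18 tested genes 13 rose and none fell, with a median of 0.52, and the risen genes were those of the non-canonical arm (NFKB2, RELB, MAP3K14), of the canonical subunit NFKB1, of 4 members of the inhibitor family (NFKBIA, NFKBIB, NFKBIE, NFKBIZ) and of the regulators TNIP1, BIRC2, CYLD and CHUK, with the adhesion molecule ICAM1. NFKB2, the precursor of the p52 subunit, was at 179.6, 146 and 162 TPM in siVPS37AB and 45.8, 55.2 and 65.4 TPM in siVPS37B (1.54 ± 0.13, adjusted p = 2.77e-08). RELB, the subunit that pairs with p52, was at 38.01, 41.8 and 58.2 TPM in siVPS37AB and 13.1, 19.2 and 12.7 TPM in siVPS37B (1.56 ± 0.16, adjusted p = 5.92e-07). In both genes every siVPS37AB library was above every siVPS37B library. NFKBIA, which holds NF-kB in the cytoplasm, was at 118, 105 and 141 TPM in siVPS37AB and 67.1, 83.9 and 96.0 TPM in siVPS37B (0.56 ± 0.12, adjusted p = 0.00269), and its adjusted p was 0.0547 without the replicate block. BIRC3, a ubiquitin ligase induced by NF-kB, lay below the filter and differed by 1.35 ± 0.18, adjusted p = 1.65e-05 in the fit without it, and was singled out after its values were seen. Without siVPS37AB replicate 1 or replicate 3 the count was 8 in place of 13, without the block 7 and with the library number 4, and NFKB1, NFKB2 and RELB rose in all 13 alternatives.

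The promoter windows of IL32 and LCN2 are shown because both genes rose in all 13 alternatives and both windows carry a match to the NF-kB motif, marked in capitals. They run from 250 bases before to 50 bases after the RefSeq start on GRCh38.p14, at chr16:3065153-3065452 (plus strand) for IL32 and chr9:128149203-128149502 (plus strand) for LCN2, and are written 5′ to 3′ on the strand of the gene.
IL32: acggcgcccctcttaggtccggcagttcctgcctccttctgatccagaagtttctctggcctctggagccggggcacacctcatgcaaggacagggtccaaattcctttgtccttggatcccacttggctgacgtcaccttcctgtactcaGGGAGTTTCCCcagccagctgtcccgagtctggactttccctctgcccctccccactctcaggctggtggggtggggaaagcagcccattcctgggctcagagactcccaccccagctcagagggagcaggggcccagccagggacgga
LCN2: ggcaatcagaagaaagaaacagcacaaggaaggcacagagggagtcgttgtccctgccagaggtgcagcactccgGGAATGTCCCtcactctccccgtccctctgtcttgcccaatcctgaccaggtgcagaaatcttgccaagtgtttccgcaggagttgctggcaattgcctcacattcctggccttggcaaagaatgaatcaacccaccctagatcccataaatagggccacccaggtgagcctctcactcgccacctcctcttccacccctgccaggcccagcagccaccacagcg
The IL32 window held 2 overlapping matches, one on each strand, 99 and 98 bases before the start, and the LCN2 window 1 match on the reverse strand, 175 bases before the start. Both strands were searched. The motif was found in 2075 of 35116 windows of this length (5.91%), in 5 of the 8 tested cytokine genes that had a window (IL32, CXCL2, CXCL3, CXCL5 and LCN2) and in 4 of the 15 tested NF-kB genes that had one (NFKB1, NFKBIA, NFKBIZ and TRAF3). Of genes that rose, 4 of 7 cytokine genes and 3 of 11 NF-kB genes with a window had a match, and a match describes letters only.

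Several receptors that ESCRT proteins are known to sort were higher at the transcript level as well, together with inducible ligands and inhibitors of EGFR. Among TNF and cytokine receptors 6 of 11 tested genes rose and none fell, with a median of 0.44. TNFRSF10A, a receptor for the death ligand TRAIL, was at 61.5, 53.3 and 70.0 TPM in siVPS37AB and 28.2, 32.7 and 28.1 TPM in siVPS37B (1.02 ± 0.12, adjusted p = 3.07e-06). TNFRSF1A, the main TNF receptor of epithelial cells, was at 175, 147 and 164 TPM in siVPS37AB and 92.4, 104 and 104 TPM in siVPS37B (0.69 ± 0.11, adjusted p = 7.22e-05). Neither gene's groups overlapped, and both were called in all 13 alternatives. The other 4 were TNFRSF10B and TNFRSF10D, which also bind TRAIL, and IFNGR1 and IFNGR2, the chains of the interferon-gamma receptor. The groups overlapped for IFNGR1, which was not called without the block (adjusted p = 0.386), under quantile normalization (adjusted p = 0.0697), or without siVPS37AB replicate 3 (adjusted p = 0.0986) or siVPS37B replicate 1 (adjusted p = 0.0848). Without siVPS37AB replicate 3 or siVPS37B replicate 1 the count of rises was 3, as under quantile normalization, and without the block it was 2.

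Of 11 tested genes around EGFR 7 rose and none fell, with a median of 0.47. EGFR, the receptor for epidermal growth factor, was at 48.5, 45.0 and 45.8 TPM in siVPS37AB and 24.4, 25.8 and 26.6 TPM in siVPS37B (0.84 ± 0.12, adjusted p = 3.93e-05). HBEGF, a ligand of EGFR, was at 27.6, 16.2 and 21.2 TPM in siVPS37AB and 7.96, 8.78 and 5.26 TPM in siVPS37B (1.44 ± 0.17, adjusted p = 2.48e-06). ERRFI1, an inhibitor that binds the EGFR kinase, was at 33.1, 22.4 and 26.4 TPM in siVPS37AB and 12.2, 10.9 and 6.74 TPM in siVPS37B (1.39 ± 0.18, adjusted p = 6.97e-06). All 3 were higher in each siVPS37AB library than in any siVPS37B library, and EGFR varied little within each group. AREG, another EGFR ligand, was at 932, 498 and 603 TPM in siVPS37AB and 428, 418 and 224 TPM in siVPS37B (0.93 ± 0.23, adjusted p = 0.00513), and its adjusted p was 0.981 with a term for the library number. SPRY2 and SPRED2, inhibitors of signalling below the receptor, and the receptor gene MET were the other rises, and the count was 4 without siVPS37AB replicate 1.

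Phosphatases that switch off MAP kinases and genes of the immediate early response moved mostly upwards. Of 24 tested genes 14 rose and 1 fell, with a median of 0.56. With a term for the library number 8 rose and 3 fell, and without the replicate block 12 rose and 0 fell. DUSP5, a nuclear phosphatase of ERK, was at 478, 368 and 429 TPM in siVPS37AB and 96.7, 123 and 94.3 TPM in siVPS37B (2.02 ± 0.16, adjusted p = 2.77e-08). DUSP10, a phosphatase of p38 and JNK, was at 33.5, 29.0 and 33.8 TPM in siVPS37AB and 11.5, 17.7 and 13.1 TPM in siVPS37B (1.15 ± 0.14, adjusted p = 3.16e-06). ATF3, a stress-induced transcription factor, was at 103, 59.0 and 71.0 TPM in siVPS37AB and 15.7, 28.0 and 13.8 TPM in siVPS37B (1.99 ± 0.22, adjusted p = 1.21e-06). The 3 genes did not overlap between the groups. KLF6, a zinc finger transcription factor of the immediate early response, was at 56.5, 46.7 and 67.2 TPM in siVPS37AB and 19.3, 22.5 and 15.8 TPM in siVPS37B (1.51 ± 0.15, adjusted p = 1.5e-07). EGR1, an immediate early transcription factor of the ERK pathway, went the other way and was at 35.4, 18.8 and 22.6 TPM in siVPS37AB and 80.4, 74.7 and 33.4 TPM in siVPS37B (-1.21 ± 0.23, adjusted p = 0.000522). It was singled out as the 1 fall of the list after its values were seen, and siVPS37B replicate 3 lay below the other siVPS37B libraries and under siVPS37AB replicate 1, so the groups overlapped, and the adjusted p was 0.0565 without the replicate block. DUSP1, DUSP8, DUSP16 and MYC were, with DUSP5, DUSP10, ATF3 and KLF6, the genes of the list that rose in all 13 alternatives.

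Most genes of cell attachment rose. Of 15 tested laminin, integrin and matrix remodelling genes 11 rose and none fell, with a median of 0.53, and 7 were called without the replicate block and 6 with the library number. LAMB3, a chain of laminin-332, the laminin of epithelial basement membranes, was at 104, 88.3 and 84.0 TPM in siVPS37AB and 44.6, 46.4 and 31.9 TPM in siVPS37B (1.16 ± 0.17, adjusted p = 4.45e-05). ITGA2, the integrin chain that binds collagen, was at 22.7, 21.7 and 27.2 TPM in siVPS37AB and 10.2, 12.3 and 13.3 TPM in siVPS37B (0.95 ± 0.14, adjusted p = 2.88e-05). PLAUR, the receptor of urokinase, was at 142, 139.5 and 139.7 TPM in siVPS37AB and 73.3, 83.5 and 61.8 TPM in siVPS37B (0.95 ± 0.14, adjusted p = 4.45e-05). None of the 3 overlapped between the groups, and the PLAUR libraries of siVPS37AB were nearly equal. Of 15 tested targets of YAP and SRF, 2 rose and 1 fell, with a median of 0.07, where 17.1% of all genes rose and 5.98% fell. F3, tissue factor, which starts coagulation, was at 95.3, 58.5 and 106 TPM in siVPS37AB and 46.1, 40.4 and 22.3 TPM in siVPS37B (1.25 ± 0.22, adjusted p = 0.000289). NT5E, an ectonucleotidase, rose by 0.48 ± 0.11, and CNN2, an actin-binding calponin, fell with overlapping groups (difference -0.55 ± 0.18, adjusted p = 0.0262), a call lost without siVPS37AB replicate 1 (adjusted p = 0.104) or 3 (adjusted p = 0.0697) and without siVPS37B replicate 1 (adjusted p = 0.118) or 2 (adjusted p = 0.125).

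Of 11 tested intestinal differentiation genes 2 rose and 2 fell, with a median of 0.07, and over all genes 17.1% rose and 5.98% fell. CDX2, the transcription factor that sets intestinal identity, was at 66.5, 96.6 and 57.8 TPM in siVPS37AB and 147, 177 and 124 TPM in siVPS37B (-1.03 ± 0.15, adjusted p = 4.45e-05). KRT20, a keratin of differentiated intestinal cells, was at 82.6, 62.7 and 58.7 TPM in siVPS37AB and 37.4, 38.7 and 24.2 TPM in siVPS37B (1.02 ± 0.16, adjusted p = 0.000109). The groups did not overlap for either gene, and their directions were opposite. KRT18 rose (0.43 ± 0.10, adjusted p = 0.00447) and TFF3, a goblet cell peptide, fell (-0.63 ± 0.18, adjusted p = 0.0126). With the library number the adjusted p was 0.0584 for KRT20, 0.0527 for KRT18 and 0.076 for TFF3, so CDX2 was the member of the list called in all 13 alternatives. HOXB8, a homeobox gene of axial identity, was at 52.8, 51.7 and 47.8 TPM in siVPS37AB and 141, 122 and 103 TPM in siVPS37B (-1.24 ± 0.21, adjusted p = 0.000193). RARRES2, which encodes the chemoattractant chemerin, was at 36.1, 34.2 and 28.3 TPM in siVPS37AB and 90.8, 89.8 and 72.9 TPM in siVPS37B (-1.34 ± 0.20, adjusted p = 3.84e-05). TWSG1, a secreted regulator of BMP signalling, was at 105, 115 and 90.7 TPM in siVPS37AB and 217, 221 and 211 TPM in siVPS37B (-1.06 ± 0.12, adjusted p = 2.02e-06). These 3 lay among the 14 largest falls, without overlap of the groups. Among 7 tested Wnt target and stem cell genes none rose and 1 fell, AXIN2, a feedback inhibitor of Wnt signalling (difference -0.41 ± 0.10, adjusted p = 0.00461), with an adjusted p of 0.0764 without the block and 0.0813 with the library number. Of 8 tested epithelial markers 5 rose, among them CLDN4, a tight junction protein, at 377, 349 and 418 TPM in siVPS37AB and 216, 202 and 184 TPM in siVPS37B (0.92 ± 0.13, adjusted p = 1.67e-05), and the count was 2 without siVPS37AB replicate 1 or 3 and 3 without siVPS37B replicate 1 or 3. S100P, a calcium-binding protein, was at 1057, 1971 and 1209 TPM in siVPS37AB and 372, 839 and 553 TPM in siVPS37B (1.29 ± 0.16, adjusted p = 6.59e-06). S100P was among the 14 largest rises with no overlap of the groups, and had an adjusted p of 0.062 without the block.

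Among genes of the oxidative stress response 12 of 21 rose with VPS37A depletion added. None of these tested NRF2 target genes fell, the median was 0.52, and the count of rises was between 9 and 12 when single libraries were left out. SRXN1, sulfiredoxin, which repairs oxidized peroxiredoxins, was at 146, 131 and 143 TPM in siVPS37AB and 41.2, 51.6 and 32.8 TPM in siVPS37B (1.74 ± 0.16, adjusted p = 1.15e-07). SLC7A11, the cystine importer, listed among NRF2 and among ATF4 targets, was at 54.3, 57.7 and 63.6 TPM in siVPS37AB and 10.3, 24.5 and 15.4 TPM in siVPS37B (1.83 ± 0.16, adjusted p = 2.77e-08). GSR, glutathione reductase, was at 229, 209.6 and 246 TPM in siVPS37AB and 99.2, 116 and 100.4 TPM in siVPS37B (1.11 ± 0.13, adjusted p = 1.45e-06). None of the 3 overlapped between the groups. OSGIN1, an oxidative stress-induced growth inhibitor, was at 31.0, 23.8 and 28.9 TPM in siVPS37AB and 4.55, 9.01 and 3.90 TPM in siVPS37B (2.15 ± 0.26, adjusted p = 3.06e-06). GCLC and GCLM, the subunits of the enzyme that limits glutathione synthesis, rose by 0.85 and 1.30, and the quinone reductase NQO1 by 0.90.

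Some targets of ATF4, the transcription factor of the integrated stress response, rose too. Of 28 tested genes 19 rose and none fell, with a median of 0.50, and 9 were called with a term for the library number. DDIT4, an inhibitor of mTORC1, was at 319, 300.2 and 234 TPM in siVPS37AB and 119, 181 and 86.6 TPM in siVPS37B (1.19 ± 0.19, adjusted p = 8.11e-05). PPP1R15A, which directs dephosphorylation of eIF2-alpha, was at 217, 86.3 and 138 TPM in siVPS37AB and 76.3, 56.4 and 35.3 TPM in siVPS37B (1.35 ± 0.26, adjusted p = 0.000793). Both lay apart between the groups, and PPP1R15A had an adjusted p of 0.314 with the library number. The risen members include amino acid enzymes and transporters (ASNS, PSAT1, PHGDH, PSPH, SHMT2, MTHFD2, SLC3A2, SLC7A11), 7 tRNA synthetases (CARS, GARS, MARS, NARS, SARS, WARS and YARS) and ATF4 itself (0.49). ATF4, DDIT4, PSAT1 and SLC7A11 rose in all 13 alternatives.

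The ER stress list had 11 rises and no fall among 24 tested genes, with a median of 0.38. SERP1, which protects membrane proteins under ER stress, was at 279, 171 and 199.8 TPM in siVPS37AB and 96.5, 81.6 and 47.2 TPM in siVPS37B (1.55 ± 0.19, adjusted p = 4.21e-06). DNAJB9, a cochaperone of the ER, was at 114, 78.8 and 101 TPM in siVPS37AB and 32.4, 37.6 and 36.4 TPM in siVPS37B (1.43 ± 0.20, adjusted p = 1.85e-05). HSPA5, the ER chaperone BiP, was at 541, 494 and 447 TPM in siVPS37AB and 237, 306 and 182 TPM in siVPS37B (1.06 ± 0.13, adjusted p = 6.97e-06). All 3 genes were higher in every siVPS37AB library, and siVPS37B replicate 3 was the lowest of the 6 for SERP1 and HSPA5. EDEM1, which hands misfolded glycoproteins to degradation, was at 74.5, 66.0 and 56.4 TPM in siVPS37AB and 26.99, 33.9 and 28.4 TPM in siVPS37B (1.11 ± 0.12, adjusted p = 6.04e-07). SURF4, a cargo receptor of the ER and in none of the lists, was at 170.0, 160.2 and 209.8 TPM in siVPS37AB and 92.3, 99.7 and 64.1 TPM in siVPS37B (1.08 ± 0.16, adjusted p = 3.79e-05). HSPA5, DNAJB9, DNAJC3, EDEM1, HERPUD1, DERL1 and SERP1 rose in all 13 alternatives.

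The promoter windows of HSPA5 and SERP1 are shown because both genes rose in all 13 alternatives and both windows hold the ER stress response element (ERSE: CCAAT, then 9 bases of any kind, then CCACG), marked in capitals. The windows are at chr9:125241294-125241593 (minus strand) for HSPA5 and chr3:150546447-150546746 (minus strand) for SERP1, from RefSeq on GRCh38.p14, and are written 5′ to 3′ on the strand of the gene.
HSPA5: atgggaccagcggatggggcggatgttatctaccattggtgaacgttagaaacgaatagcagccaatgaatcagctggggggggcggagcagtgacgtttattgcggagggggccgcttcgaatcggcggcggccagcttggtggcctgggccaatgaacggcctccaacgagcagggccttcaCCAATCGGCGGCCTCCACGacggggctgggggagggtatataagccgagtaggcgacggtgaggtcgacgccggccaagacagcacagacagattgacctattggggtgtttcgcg
SERP1: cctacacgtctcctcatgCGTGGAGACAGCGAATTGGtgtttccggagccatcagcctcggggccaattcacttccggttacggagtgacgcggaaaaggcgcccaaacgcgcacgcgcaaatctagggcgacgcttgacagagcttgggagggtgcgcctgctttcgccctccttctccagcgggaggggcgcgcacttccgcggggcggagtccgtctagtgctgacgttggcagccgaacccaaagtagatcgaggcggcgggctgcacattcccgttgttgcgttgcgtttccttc
The match starts 66 bases before the start of HSPA5 on the forward strand and 232 bases before the start of SERP1 on the reverse strand. Both strands were searched, and the element was found in 27 of 35116 windows (0.0769%). Of 23 tested genes of the ER list with a window 7 held it (HSPA5, HSP90B1, CALR, CANX, XBP1, CRELD2 and SERP1), among them 3 of the 10 with a window that rose. For the 4 other motifs searched, counts of list genes likewise cover only tested genes that had a window. The antioxidant element (TGAC, 3 bases of any kind, GC) was in 13.3% of all windows and in 2 of 9 such NRF2 targets that rose. The ATF4 element (TGATG, 1 base of any kind, AA) was in 3.61% of all windows and in 5 of 15 such ATF4 targets that rose. The AP-1 site TGANTCA was in 7.71% of all windows. Among risen genes with a window it was in 1 of 11 of the MAP kinase list and in 2 of 9 of the matrix list. The lysosomal CLEAR element (GTCA followed by CGTG) was in 2.4% of all windows. It was in 7 of 22 tested lysosome genes with a window, but in 0 of the 8 of these that rose. Of 23 tested autophagy, folliculin and Rag genes with a window 4 held it, among them 2 of the 11 that rose.

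Lysosome genes and autophagy genes were higher in part. Of 33 tested lysosome genes 14 rose and 1 fell, with a median of 0.29. GLA, the lysosomal alpha-galactosidase, was at 130.1, 138 and 207 TPM in siVPS37AB and 69.6, 79.2 and 77.7 TPM in siVPS37B (1.03 ± 0.12, adjusted p = 1.45e-06). NEU1, the lysosomal sialidase, was at 44.9, 47.3 and 58.6 TPM in siVPS37AB and 27.02, 27.6 and 26.8 TPM in siVPS37B (0.86 ± 0.11, adjusted p = 1.09e-05). The groups did not overlap for either enzyme, and GLA, NEU1 and the cholesterol exporter NPC1 rose in all 13 alternatives. LAMP2, a membrane protein of lysosomes, was at 164, 139.7 and 162 TPM in siVPS37AB and 91.1, 93.2 and 96.5 TPM in siVPS37B (0.72 ± 0.16, adjusted p = 0.00241), with an adjusted p of 0.0581 with the library number. The count of rises was 6 without siVPS37AB replicate 1, 9 without siVPS37AB replicate 3, 9 without siVPS37B replicate 1 and 8 without siVPS37B replicate 3. Of 25 tested genes of autophagy, folliculin and the Rag GTPases 11 rose and 1 fell, with a median of 0.30. SQSTM1, the autophagy receptor p62, was at 1146, 1115 and 1207 TPM in siVPS37AB and 527, 614 and 478 TPM in siVPS37B (1.11 ± 0.12, adjusted p = 9.75e-07). WIPI1, which acts in autophagosome formation, was at 23.5, 26.9 and 20.0 TPM in siVPS37AB and 9.02, 14.6 and 10.6 TPM in siVPS37B (1.00 ± 0.17, adjusted p = 0.0002). FNIP1, a partner of folliculin, was at 32.6, 28.3 and 34.3 TPM in siVPS37AB and 20.3, 16.6 and 18.3 TPM in siVPS37B (0.75 ± 0.11, adjusted p = 4.98e-05). Each of these 3 genes was higher in all siVPS37AB libraries. The fall was in MAP1LC3A, a member of the ATG8 family (-0.73 ± 0.18, adjusted p = 0.00555), singled out after its value was seen, and the count of rises was 7 without siVPS37B replicate 1.

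Some genes of cholesterol synthesis, iron handling and the response to hypoxia rose. Among 28 tested genes of cholesterol and fatty acid synthesis 10 rose and 1 fell, with a median of 0.27, and 6 rose without siVPS37AB replicate 3. TM7SF2, a sterol reductase and the 1 fall, was at 28.0, 29.5 and 30.0 TPM in siVPS37AB and 56.9, 68.0 and 44.2 TPM in siVPS37B (-0.91 ± 0.21, adjusted p = 0.0038). Its groups did not overlap. Of 9 tested iron genes 5 rose and 1 fell (STEAP3, a ferric reductase, -0.53 ± 0.17, adjusted p = 0.0283, singled out after its value was seen and not called when any 1 of the 6 libraries but siVPS37AB replicate 2 was left out), with a median of 0.43, and the count of rises was 3 without siVPS37AB replicate 1 or 2. FTH1, the heavy chain of ferritin, the iron store, was at 5652, 5519.9 and 5762 TPM in siVPS37AB and 3631, 3924 and 3612 TPM in siVPS37B (0.60 ± 0.10, adjusted p = 0.000125). Of 22 tested hypoxia and glycolysis genes 10 rose and none fell, with a median of 0.33. VEGFA, the vascular growth factor, was at 471, 306 and 371 TPM in siVPS37AB and 179, 203 and 206 TPM in siVPS37B (0.94 ± 0.15, adjusted p = 9.86e-05). ADM, the vasodilator peptide adrenomedullin, was at 107, 79.5 and 126 TPM in siVPS37AB and 46.5, 63.0 and 38.7 TPM in siVPS37B (1.06 ± 0.19, adjusted p = 0.00037). HIF1A, EGLN1, P4HA1, SLC2A1 and NDRG1 rose with VEGFA and ADM in all 13 alternatives. Among 21 tested heat shock chaperones 5 rose and 1 fell (HSPB1), where 17.1% of all genes rose and 5.98% fell. The median was 0.07, which turned to -0.02 under quantile normalization. The count of rises was 2 or 3 whichever of the 6 libraries was left out (3 without siVPS37AB replicate 3 or siVPS37B replicate 3, otherwise 2). HSPB1 was not called without siVPS37AB replicate 1 (adjusted p = 0.0908) or 3 (adjusted p = 0.0925), siVPS37B replicate 1 (adjusted p = 0.0977) or 2 (adjusted p = 0.156), the block (adjusted p = 0.141) or under quantile normalization (adjusted p = 0.0604).

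BHLHE40, NAMPT and SFN were also among the 14 largest rises. BHLHE40, a transcriptional repressor of the clock and of hypoxia, was at 129.6, 110.4 and 121 TPM in siVPS37AB and 33.1, 45.4 and 36.9 TPM in siVPS37B (1.63 ± 0.17, adjusted p = 7.21e-07). NAMPT, which limits NAD synthesis by salvage, was at 257, 242 and 258 TPM in siVPS37AB and 64.8, 99.8 and 92.8 TPM in siVPS37B (1.57 ± 0.13, adjusted p = 2.77e-08). SFN, 14-3-3 sigma, an epithelial adaptor protein, was at 459.8, 297 and 418 TPM in siVPS37AB and 158, 145 and 105 TPM in siVPS37B (1.52 ± 0.23, adjusted p = 5.11e-05). Every siVPS37AB library lay above every siVPS37B library for each, and the 3 genes rose in all 13 alternatives.

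**Figure D3:**
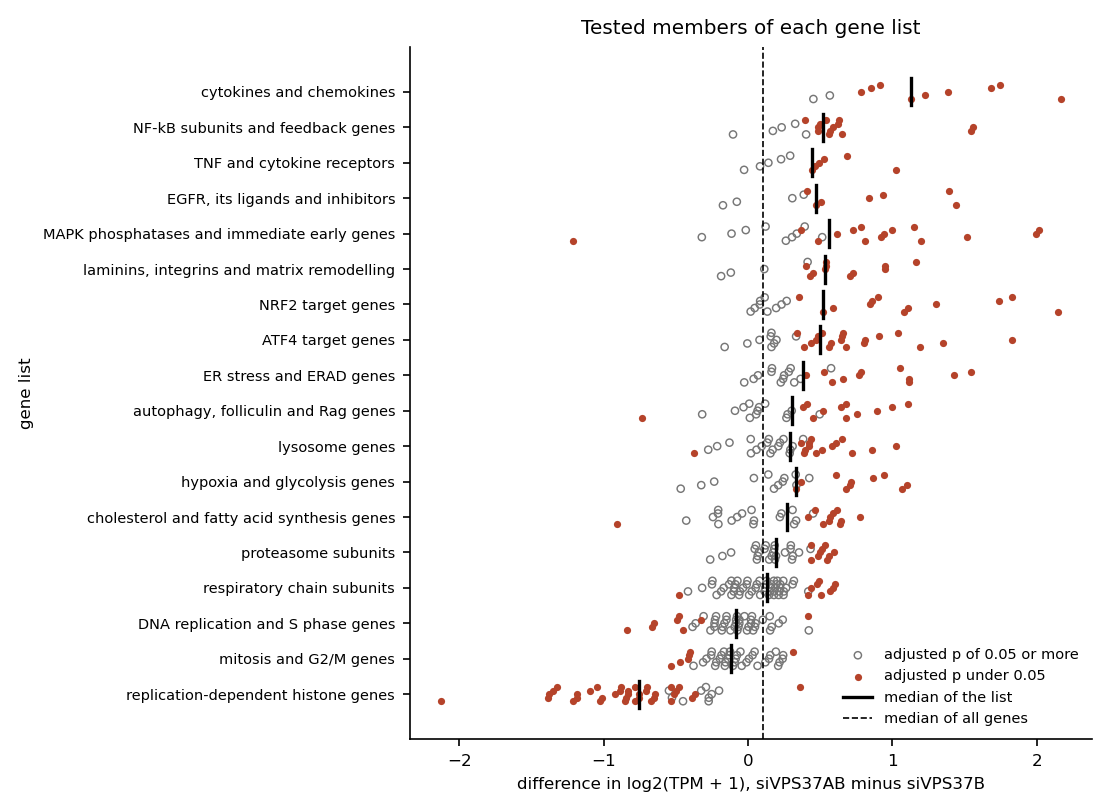
Difference in log2(TPM + 1), siVPS37AB minus siVPS37B, of the tested members (points) of the gene lists named on the y axis. Filled points passed the test, black bars mark each list's median and the dashed line the median of all genes at 0.11; the cytokine list has the highest median, 1.13, and the histone list the lowest, -0.76.

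Genes of replication-dependent histones, which supply chromatin protein during DNA synthesis, formed the list with the most falls. Of 60 genes listed 48 were in the table and 45 tested, of which 35 fell and 1 rose, with a median of -0.76, where 5.98% of all genes fell. Their summed share of the library was 4.79%, 4.73% and 4.08% in siVPS37AB and 8.09%, 7.51% and 6.70% in siVPS37B, with no overlap. HIST1H2BM, a core histone H2B gene, was at 61.3, 76.6 and 56.3 TPM in siVPS37AB and 332, 258 and 268 TPM in siVPS37B (-2.13 ± 0.18, adjusted p = 2.77e-08). HIST1H1B, a linker histone gene, was at 587, 636 and 444 TPM in siVPS37AB and 1585, 1419.8 and 1301 TPM in siVPS37B (-1.38 ± 0.14, adjusted p = 4.95e-07). HIST1H1D, another linker histone gene, was at 216, 248 and 203 TPM in siVPS37AB and 523, 612 and 574 TPM in siVPS37B (-1.35 ± 0.14, adjusted p = 6.04e-07). For each of these every siVPS37AB library was below every siVPS37B library, and 38 of the 45 genes were lower in all 3 pairs. By class, 3 of 4 H1 genes fell (median -1.10), 11 of 13 H2A genes (-0.76), 11 of 12 H2B genes (-0.83), 5 of 7 H3 genes (-0.53) and 5 of 9 H4 genes (-0.51). The 1 rise was HIST1H2BK, at 453, 361 and 585 TPM in siVPS37AB and 318, 303 and 469 TPM in siVPS37B (0.36 ± 0.12, adjusted p = 0.0312), higher in each pair but with overlapping groups, singled out after its values were seen. It was not called without siVPS37AB replicate 1 (adjusted p = 0.127) or 3 (adjusted p = 0.118) or siVPS37B replicate 1 (adjusted p = 0.14) or 2 (adjusted p = 0.079), nor without the block (adjusted p = 0.293). The falls numbered 26 without the replicate block, 32 with the library number and from 29 to 33 without single libraries, and 22 genes fell in all 13 alternatives. These genes are near-identical in sequence, so single values are uncertain where reads could be split between copies.

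**Figure D4:**
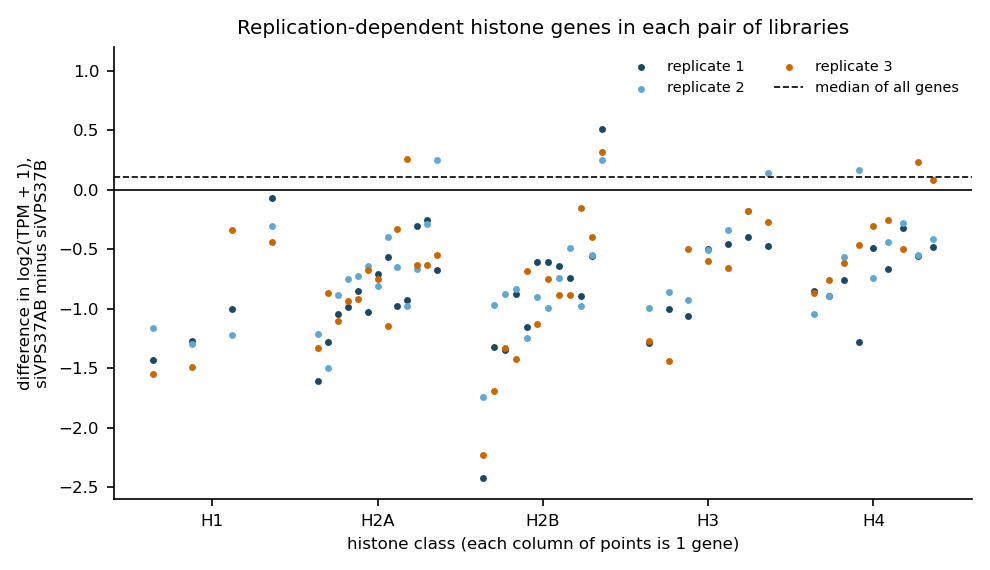
Difference in log2(TPM + 1), siVPS37AB minus siVPS37B, in each pair of same-numbered libraries (colours) for the 45 tested replication-dependent histone genes (columns of points), grouped by histone class. Of the 45 genes 38 are below 0 in all 3 pairs; the dashed line marks the median of all genes at 0.11.

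Fewer genes of DNA replication and of mitosis were called. Of 46 tested replication and S phase genes 7 fell and 1 rose, with a median of -0.08, where 5.98% of all genes fell and 17.1% rose. MCM5, a subunit of the replicative helicase, was at 78.4, 81.2 and 61.9 TPM in siVPS37AB and 144, 127 and 124 TPM in siVPS37B (-0.84 ± 0.16, adjusted p = 0.000736). CHAF1B, a subunit of the histone chaperone CAF-1, was at 13.6, 15.6 and 17.9 TPM in siVPS37AB and 23.8, 21.8 and 31.5 TPM in siVPS37B (-0.67 ± 0.12, adjusted p = 0.0004). CDT1, which loads the helicase at origins, was at 34.8, 34.8 and 31.9 TPM in siVPS37AB and 55.9, 51.4 and 53.4 TPM in siVPS37B (-0.65 ± 0.14, adjusted p = 0.00194). The groups did not overlap for these 3, which were the members called in all 13 alternatives, and 11 genes fell under quantile normalization and 3 with the library number. The rise was in CDC6, another loading factor (0.42 ± 0.14, adjusted p = 0.0289), singled out after its value was seen and not called without siVPS37AB replicate 1 (adjusted p = 0.142) or 3 (adjusted p = 0.0938) or siVPS37B replicate 1 (adjusted p = 0.105) or 2 (adjusted p = 0.127). Of 40 tested mitosis and G2/M genes 5 fell and 1 rose, with a median of -0.12, and the rise, in PRC1, was not called when any 1 of the 6 libraries but siVPS37B replicate 2 was left out. TPX2, a spindle assembly factor, was at 77.1, 77.8 and 80.6 TPM in siVPS37AB and 118, 119.8 and 106 TPM in siVPS37B (-0.54 ± 0.12, adjusted p = 0.00194). Quantile normalization gave 8 falls and 0 rises, no block 2 and 0, and the library number 2 falls and 3 rises, so the balance turned. TPX2 was the mitosis gene called in all 13 alternatives, and the count of falls was 3 without siVPS37AB replicate 1 or without siVPS37B replicate 1 or 2, 1 without siVPS37AB replicate 2 and 2 without siVPS37AB replicate 3. CDKN1A, the cell cycle inhibitor p21 and a target of p53, was at 52.96, 53.02 and 51.1 TPM in siVPS37AB and 25.8, 36.7 and 16.4 TPM in siVPS37B (1.04 ± 0.21, adjusted p = 0.00132). Of 14 tested p53 target and growth arrest genes 6 rose and 2 fell, with a median of 0.25, and CDKN1A did not overlap between the groups. SESN2, sestrin 2, a stress-induced inhibitor of mTORC1, was at 83.7, 69.3 and 78.6 TPM in siVPS37AB and 31.1, 36.6 and 38.3 TPM in siVPS37B (1.11 ± 0.16, adjusted p = 3.79e-05). GADD45A, a stress sensor of growth arrest, was at 136, 137 and 176 TPM in siVPS37AB and 66.3, 92.5 and 82.0 TPM in siVPS37B (0.89 ± 0.14, adjusted p = 5.06e-05). The falls were in FDXR (-0.76 ± 0.16, adjusted p = 0.00186, singled out after its value was seen) and DDB2 (-0.56 ± 0.11, adjusted p = 0.000994), which are also known targets of p53. With the library number the adjusted p was 0.106 for DDB2 and 0.101 for FDXR. Of 13 tested apoptosis regulators 2 rose and none fell, where 17.1% of all genes rose, a similar share. The median was 0.14, which turned to -0.01 under quantile normalization. The rises were in the survival factor MCL1 (0.47 ± 0.12, adjusted p = 0.00693) and BIK, which promotes cell death (0.66 ± 0.17, adjusted p = 0.00843). BIK was not called without siVPS37AB replicate 1 (adjusted p = 0.0633).

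In the remaining lists at most 9 members rose. Of 33 tested proteasome subunits 9 rose and none fell, with a median of 0.19, and 4 were called without the block and 3 with the library number. Of 59 tested respiratory chain subunits 8 rose and 1 fell, with a median of 0.13, and leaving out any library gave from 3 to 5 rises (3 without siVPS37AB replicate 1 or siVPS37B replicate 1 or 3, 4 without siVPS37AB replicate 3 or siVPS37B replicate 2, 5 without siVPS37AB replicate 2). Over all genes 17.1% rose, more than this share, and the fall was not called without siVPS37AB replicate 1, siVPS37B replicate 1, the block or with the library number, and there were 2 falls without siVPS37B replicate 3. COX7B, a subunit of cytochrome c oxidase, rose (0.60 ± 0.14, adjusted p = 0.00427), as did PSMA5, a proteasome core subunit (0.59 ± 0.15, adjusted p = 0.00723). Of 39 tested ribosome biogenesis genes 3 rose and 1 fell, with a median of 0.08 that turned to -0.02 under quantile normalization, and 1 rose without siVPS37AB replicate 1 or 3 or siVPS37B replicate 1 or 2, and 5 without siVPS37B replicate 3, while quantile normalization gave 1 rise and 3 falls. Of 11 tested antigen presentation genes 2 rose (HLA-E and TAP1) and none fell, with 1 rise and 1 fall without siVPS37B replicate 2 and 1 rise and 2 falls under quantile normalization. Of 15 tested interferon response genes 1 rose and 2 fell, among them IFI6, at 102, 117 and 107 TPM in siVPS37AB and 202, 186 and 149 TPM in siVPS37B (-0.71 ± 0.16, adjusted p = 0.00286), and the falls numbered 1 without siVPS37AB replicate 1 or siVPS37B replicate 1 or 3. Of 10 tested tubulin genes 2 rose and 1 fell, and TUBB3, a beta-tubulin of neurons, was at 217, 158 and 211 TPM in siVPS37AB and 115, 99.2 and 92.5 TPM in siVPS37B (0.92 ± 0.19, adjusted p = 0.0017), with an adjusted p of 0.347 with the library number. Of 12 tested housekeeping genes none rose and 2 fell, with a median of -0.14: ACTB was at 6682, 6565 and 5829 TPM in siVPS37AB and 9668, 8659.7 and 8355 TPM in siVPS37B (-0.48 ± 0.13, adjusted p = 0.0122) and HPRT1 differed by -0.43 ± 0.15, adjusted p = 0.046. Neither was called without siVPS37AB replicate 1, siVPS37AB replicate 3 or siVPS37B replicate 2, and HPRT1 was also lost without siVPS37AB replicate 2 and siVPS37B replicate 1. Of 16 marker genes of immune, endothelial, stromal, red blood and glial cells 3 were in the table, none passed the filter, and their summed level was 9.11, 10.7 and 10.7 TPM in siVPS37AB and 9.52, 12.2 and 11.3 TPM in siVPS37B. Of these 3, CSF1R rose from 0.129, 0.377 and 0.327 TPM to 0.940, 1.38 and 1.06 TPM (0.74 ± 0.14, adjusted p = 0.000765, fit without a filter), CD14 fell (-0.65 ± 0.20, adjusted p = 0.028) and CD68 differed by 0.57 ± 0.21, adjusted p = 0.0576, all singled out after their values were seen. All libraries are labelled as DLD1 cells, and whether cells of any other kind were present was not tested. In bulk RNA fewer cells of a kind and less RNA per cell cannot be told apart.

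The same siRNA was also added to VPS37C depletion (siVPS37AC against siVPS37C) and to the depletion of both other paralogs (siVPS37ABC against siVPS37BC), in libraries that are not shared with the 6 described above. IL32 rose by 0.86 and 2.26 in these settings and HIST1H2BM changed by -1.13 and -1.99, all past the test, while the number of genes called was smaller on VPS37C depletion. On VPS37C depletion 110 of the 6468 genes were called (1.7%), 82 up (1.27%) and 28 down (0.433%), and on VPS37B and VPS37C depletion 1357 (21%), 775 up (12%) and 582 down (9%). Of the 1495 genes called on VPS37B depletion, 95 (6.35%) were called with the same sign on VPS37C depletion, which is 86.4% of that comparison's calls, and 683 (45.7%) on the depletion of both, which is 50.3% of its calls. Over the genes that rose on VPS37B depletion the median difference was 0.25 on VPS37C depletion and 0.33 on the depletion of both, and over those that fell it was -0.16 and -0.42. Of the cytokine list 3 genes rose on VPS37C depletion and 8 on the depletion of both, of the NRF2 list 0 and 14, of the ATF4 list 1 and 10, and of the ER list 1 and 8. Of the 45 histone genes 16 fell on VPS37C depletion (list median -0.50) and 39 on the depletion of both (-0.92), and of the 46 replication and S phase genes 0 and 19 fell. Across all tested genes, which are not independent replicates, Pearson's r with the differences on VPS37B depletion was 0.62 and 0.70.

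The difference between the settings was itself tested, as a contrast of the 2 comparisons. The addition of the VPS37A siRNA had a higher difference on VPS37B than on VPS37C depletion for 19 genes (0.294%) and a lower one for 3 (0.0464%). For IL32 the difference was 2.17 on VPS37B and 0.86 on VPS37C depletion, and the contrast was 1.31 ± 0.26, adjusted p = 0.0309. For SLC7A11 the values were 1.83 and 0.44 (contrast 1.39 ± 0.22, adjusted p = 0.0119), and for SRXN1 1.74 and 0.43 (contrast 1.31 ± 0.23, adjusted p = 0.0146). All 3 had the higher difference on VPS37B depletion, and DUSP5, NAMPT, NFKB2, SERP1, CSF2, OSGIN1, GLA and HSPB11 were called in the same direction. HIST1H2AJ had the lower difference on VPS37B depletion (-1.38 against -0.27, contrast -1.11 ± 0.23, adjusted p = 0.0338). By list, 3 cytokine genes and 4 NRF2 target genes had a positive contrast called, with list medians of 0.73 and 0.42, against 0.03 over all genes. Without the replicate block no contrast passed in limma (0 and 0, with 233 positive and 150 negative at an unadjusted p under 0.05), and no positive one passed without siVPS37AB replicate 1, siVPS37AB replicate 3 or siVPS37C replicate 2. Positive contrasts numbered 29 without siVPS37AB replicate 2, 9 without siVPS37B replicate 3, 7 without siVPS37AC replicate 1 or 2, 2 without siVPS37B replicate 1, 1 without siVPS37AC replicate 3 and 12 without siVPS37C replicate 1, and negative ones 8 without siVPS37AB replicate 2 and 0 or 1 without any other of the 12 libraries of the contrast. The libraries of the other groups enter this contrast through the shared model, and there were 12 positive ones without siVPS37ABC replicate 1, 11 without siVPS37BC replicate 2, and 5 and 7 negative ones without siVPS37ABC replicate 3 and siVPS37BC replicate 3.

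Against the depletion of both other paralogs, 10 genes (0.155%) had a positive contrast and 10 (0.155%) a negative one. SURF4 differed by 1.08 on VPS37B depletion and by 0.01 on VPS37B and VPS37C depletion (contrast 1.08 ± 0.22, adjusted p = 0.0452). DUSP10 had the lower difference on VPS37B depletion, 1.15 against 2.15 (contrast -1.001 ± 0.20, adjusted p = 0.0452). SURF4 was thus higher with the VPS37A siRNA on VPS37B depletion and close to no difference on the depletion of both, and DUSP10 rose in both settings. CHMP2B, an ESCRT-III subunit, differed by 0.04 on VPS37B depletion, with overlapping groups, and by 0.83 on the depletion of both (contrast -0.80 ± 0.17, adjusted p = 0.0452). The siVPS37ABC and siVPS37BC libraries shared a library number in replicates 1 and 2, while siVPS37AB and siVPS37B shared none, so the 2 sides of this contrast differ in that too. With a term for the library number 2 positive and 1 negative contrasts passed. The adjusted p in limma was then 0.132 for SURF4, 0.136 for DUSP10 and 0.133 for CHMP2B. Without the replicate block 0 contrasts passed in limma in either direction (342 positive and 134 negative at an unadjusted p under 0.05), and the counts rested on most of the 12 libraries of the contrast. Without siVPS37BC replicate 3 there were 19 positive and 11 negative contrasts, without siVPS37ABC replicate 3 there were 9 and 7, and without any other of the 12 libraries 0 or 1 positive and from 1 to 3 negative ones. Of the groups outside the contrast, siVPS37C replicate 3 left 7 and 6 when omitted, siVPS37AC replicate 3 left 5 and 4, siVPS37C replicate 1 left 1 and 4, and siVPS37AC replicate 1, siVPS37AC replicate 2 or siVPS37C replicate 2 left 0 and 1.

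**Figure D5:**
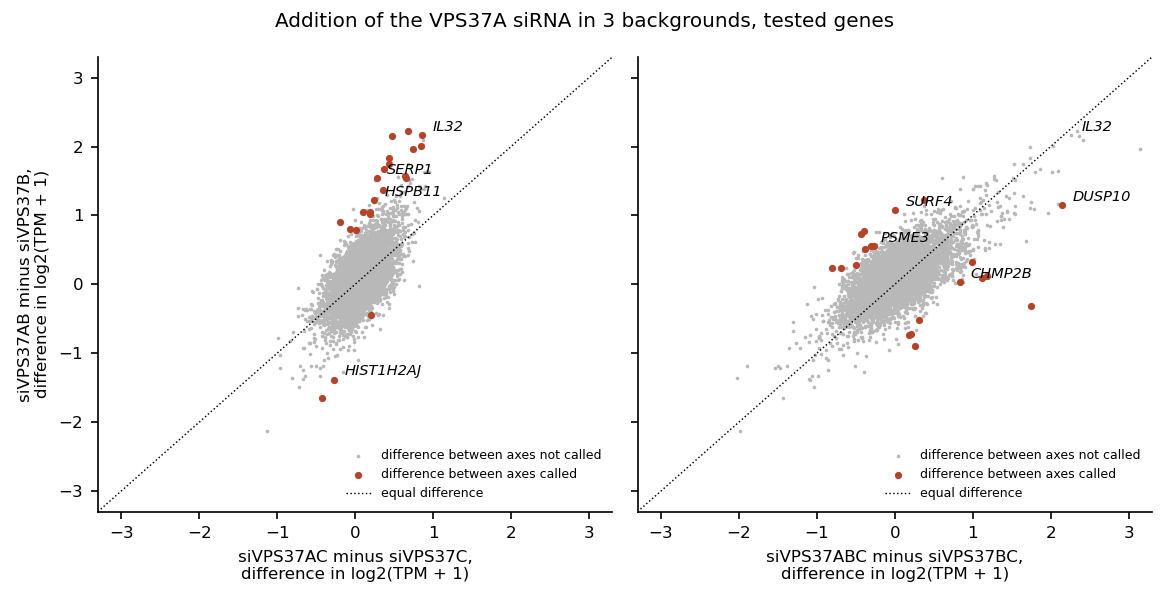
Difference made by the VPS37A siRNA in log2(TPM + 1) on VPS37B depletion (y axis) against that on VPS37C depletion (left) and on VPS37B and VPS37C depletion (right), for the 6468 genes tested (points). Red points are genes whose contrast between the axes passed the test (0.34% on the left and 0.309% on the right); IL32 lies above the dotted line of equal differences on the left.

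HSPB11, a component of intraflagellar transport and listed with the heat shock chaperones, had a low level in the siVPS37B libraries. HSPB11 was at 519, 546 and 611 TPM in siVPS37AB and 209, 228 and 282 TPM in siVPS37B (1.23 ± 0.12, adjusted p = 3.94e-07), with no overlap. Its mean was 239 TPM in siVPS37B and 558 in siVPS37AB, against 465 in untransfected cells, 688 in siVPS37A, 722 in siVPS37C, 565 in siVPS37BC, 854 in siVPS37AC and 732 in siVPS37ABC. The siVPS37B mean was the lowest of these 8 group means. NDUFA8, a respiratory chain subunit singled out after its values were seen, was at 194, 253 and 258 TPM in siVPS37AB and 161, 178 and 186 TPM in siVPS37B (0.41 ± 0.15, adjusted p = 0.0461), with means of 136 in siVPS37BC and 154 in siVPS37ABC, against 308 in untransfected cells, and was not called when any 1 of the 6 libraries was left out (adjusted p from 0.0655 to 0.157). VPS37B itself had overlapping levels in siVPS37B and siVPS37AB, as given above, and the part that the amount of VPS37B siRNA in each cell has in these 2 differences was not tested.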

How the data were processed

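RNA of 27 libraries in 9 groups of 3 replicates was measured with an Ion AmpliSeq panel, per the labels' protocols. Per the submitters' processing notes the authors used DESeq2 1.18.1, HTSeq 0.6.0 and hg19, with no role given. The authors deposited 1 table of 10470 genes whose columns each sum to 1000000 and which was taken as TPM, so reads and depth per library could not be recovered and precision comes from the replicates alone. Another 2157 lines hold no identifier and were left out.

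Values were analysed as log2(TPM + 1), a scale that understates changes of low genes. Genes that averaged 10 TPM or more over the 24 libraries without siCTRL were tested (6468) with limma 3.58.1 in R 4.3.3, in 1 model with a mean for each of 8 groups, the replicate number as a block and 14 residual degrees of freedom, and p-values were adjusted over all of them. The median SE was 0.144. Genes under the filter come from the same model without it. The contrasts between settings use the same model.

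The labels give each replicate number as a batch, and libraries were paired by that number. Deviations from the group means in same-numbered siVPS37AB and siVPS37B libraries had r of 0.578, 0.175 and 0.422, against -0.49 to 0.07 for other pairs. The deviations of a gene sum to 0 within each group, so these values depend on each other and do not establish the pairing.

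The members, gene lists and tests were chosen with earlier results of these data known. Named genes are VPS37A, VPS37B and VPS37C, the 14 largest rises and falls among called genes that averaged 50 TPM or more and had 1 sign in all 3 pairs, up to 4 called members with the smallest p of each list (or up to 2 of the highest mean where none was called), and the 3 largest contrasts each way among genes of 50 TPM or more. Some are left out for length, and some are not reported here. Alternatives were no block, a term for the library number, only the 6 libraries, all 27 libraries, a filter at 50 TPM or none, quantile normalization, a pseudocount of 8 and the omission of each library. The fit was also run on simulated data with independent normal noise for each gene and no effect of the library number. That run does not bear on how calls change when single libraries are left out. Promoter windows come from RefSeq on GRCh38.p14, matched by symbol. Tables and figures were made in Python 3.11.15 with matplotlib 3.10.9, numpy 2.4.6 and pandas 2.3.3.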

Additional observations from a re-analysis of the deposited data

Results flagged for a closer look

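The genes below were singled out because the difference made by the VPS37A siRNA on VPS37B depletion was itself found to differ from that in another setting, by a contrast tested over all genes with limma. Against VPS37C depletion the contrast in log2(TPM + 1) was positive for IL32 (1.31), DUSP5 (1.17), SRXN1 (1.31), NAMPT (0.93), SERP1 (1.27), NFKB2 (0.89), CSF2 (1.31), GLA (0.84), SLC7A11 (1.39), OSGIN1 (1.67) and HSPB11 (0.98). It was negative for HIST1H2AJ (-1.11) and AMACR (-0.65); HIST1H2AJ, a histone H2A gene, fell on VPS37B depletion (-1.38), and AMACR, an enzyme of branched fatty acid oxidation, had opposite signs (-0.45 against 0.21). The adjusted p of every gene named so far was above 0.05 without the replicate block, without siVPS37AB replicate 1 (0.0766 for SLC7A11 to 0.206 for OSGIN1) and without siVPS37AB replicate 3 (0.0533 for SLC7A11 to 0.204 for AMACR).

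Against the depletion of both other paralogs the contrast was positive for HSPB11 (0.86), PSME3 (0.87), SURF4 (1.08), SDHAF3 (0.93) and FAM136A (0.90). It was negative for DUSP10 (-1.001), CHMP2B (-0.80) and BLVRA (-0.67). PSME3, a proteasome activator, rose on VPS37B depletion (0.56), where the value on the depletion of both was -0.31. SDHAF3, an assembly factor of succinate dehydrogenase, was at 0.24 and -0.69, FAM136A at 0.52 and -0.38, and BLVRA, which reduces biliverdin, at 0.32 and 0.99. For the genes of this paragraph the adjusted p was above 0.05 without the replicate block, with a term for the library number, without siVPS37AB replicate 3 (0.179 for DUSP10 to 0.214 for FAM136A) and without siVPS37BC replicate 1 (0.198 for SURF4 to 0.239 for CHMP2B). HSPB11 appears against both settings, beside its low level in siVPS37B.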

How the results depend on the processing

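The main model has the replicate number as a block, and the pairing is given by the labels. With no replicate block, 590 genes rose and 173 fell (1108 and 387 with it), and limma called 0 and 0 contrasts against VPS37C depletion and 0 and 0 against the depletion of both other paralogs (with the block 19 and 3, and 10 and 10). With a term for the library number the counts were 664 and 252, then 11 and 3, then 2 and 1. With the filter at 50 TPM, which tests fewer genes, they were 400 and 179, then 12 and 3, then 4 and 1. Quantile normalization gave 649 and 648, with 10 negative contrasts against VPS37C depletion and 6 positive ones against the depletion of both. All 27 libraries gave 5 negative contrasts against VPS37C depletion. Without a filter there were 8, and against the depletion of both 0 positive (998 at an unadjusted p under 0.05) and 2 negative. Leaving out single libraries gave 611 to 939 rises and 180 to 301 falls, and contrasts of 0 to 29 and 0 to 8 against VPS37C depletion and of 0 to 19 and 1 to 11 against the depletion of both. At counts of 0 without single libraries, 318 to 381 and 194 to 325 contrasts against VPS37C depletion, and 433 to 665 positive ones against the depletion of both, had an unadjusted p under 0.05. The causes of these shifts were not tested. The filter at 50 TPM and the omission of a library also leave fewer genes or fewer libraries in the fit. No single gene named here that was called reversed its direction in these alternatives, while the balance of rises and falls turned for mitosis genes with the library number and for ribosome biogenesis and antigen presentation genes under quantile normalization. Of 139 genes named by rule 75 were called in all of 13 alternatives, which leave out the filter at 50 TPM and the omission of libraries of other groups. Unknown depth limits what can be said of genes with few TPM.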
